A study of Homo sapiens with 6 samples.

Results

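PDK4 and the other genes of the pyruvate dehydrogenase switch were followed in cells labelled HepG2, a human liver cancer cell line, with and without exposure to cationic liposomes (CLs). The set holds 10 genes of the 40205 in the count table, and its members were picked by gene symbol. They are the 4 kinases PDK1, PDK2, PDK3 and PDK4, the 2 phosphatases PDP1 and PDP2, and the 4 complex subunits PDHA1, PDHB, DLAT and PDHX. PDK4 was chosen because its read count differed strongly between the groups of this same experiment, so its change is described here without a test. The other 9 were added for their function around PDK4. All 10 had enough reads to enter the comparison across 15047 genes. The control group held 3 libraries from cells without CLs (Control-1 to Control-3), and the CLs-treated group held 3 libraries (named CLs-1 to CLs-3) from cells that had spent 24 h with CLs. Every library carries the label of the same line. The culture medium described for that line contained serum, but the paper does not say whether serum was present during exposure. The CLs were made of the cationic lipid DOTAP, cholesterol and a PEG lipid. The dose is 120 μM by the sample labels, whereas the text of the paper uses both μM and μg/ml as units. The paper calls the samples independent, but the sources used here do not say whether the libraries of a group came from separate cultures, so p-values measure the spread between these libraries, which may be technical.

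The pyruvate dehydrogenase complex sits in the mitochondrial matrix and turns pyruvate into acetyl-CoA, the step by which carbon from glucose enters the citric acid cycle for good. Its activity is set by phosphorylation of the E1 alpha subunit. Pyruvate dehydrogenase kinases add the phosphates and switch the complex off, and pyruvate dehydrogenase phosphatases remove them and switch it on again. Of the kinases, PDK4 is best known as a gene of fasting and fat oxidation in liver, heart and skeletal muscle, whereas PDK1 is known as a target of the hypoxia response. Transcript levels report neither the amount of these proteins nor the phosphorylation state of the complex, and neither was measured here.

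Between 11418527 and 13998946 reads per library were counted on genes, the most in CLs-1. Marker genes of the labelled line were absent or close to it. The 13 liver markers, among them albumin (ALB), alpha-fetoprotein (AFP) and apolipoprotein B (APOB), had between 3 and 17 counts in sum in 5 of the libraries and 148 in CLs-1. In the 3 control libraries ALB, APOB and transthyretin (TTR) had 0 counts, and AFP had at most 1. CLs-1 also stood apart in other lists. The 7 genes of steroid-making cells had 482 counts in sum in CLs-1 and 11 to 32 elsewhere, and the 4 genes of red cells had 477 in CLs-1 and 0 to 4 elsewhere. The 6 fibroblast genes had sums from 8225 to 13297, which came mostly from COL3A1 and COL1A1, both read in every library. Outside CLs-1 only 2 or 3 of these 6 genes had more than 3 counts, and COL1A2 was read 1044 times in CLs-1 and no more than 2 times in any other library. The lists of fat cells (2 to 8 counts) and of heart and skeletal muscle, tissues rich in PDK4 (29 to 74 counts), were low in all 6 libraries. The source of these marker reads and its part in the results below were not tested, and values without CLs-1 are given where they matter.

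PDK4 was read 63, 77 and 69 times in the controls, in the order of their numbers, and 607, 343 and 375 times in the treated libraries. In CPM, counts scaled to a common library size by TMM, this is 5.47, 6.65 and 5.92 in the control libraries and 42.0, 29.6 and 32.9 in the CLs-treated libraries. Every CLs-treated library lay above every control library, and the lowest of them was more than 4 times the highest control. Mean CPM was 6.01 ± 0.595 in controls (SD, n = 3) and 34.8 ± 6.42 after CLs (SD, n = 3). The log2 fold change from the edgeR fit was 2.53 with a standard error (SE) of 0.19. This is 5.79-fold with a 95% interval from 4.31 to 7.78. The interval takes no account of the choice of PDK4 by this contrast, so it is not a test. CLs-1 was the highest of the 3 treated libraries, and without it the log2 fold change was 2.38. In bulk RNA a change in the number of cells that carry a transcript and a change in the transcript per cell cannot be told apart.

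**Figure D1:**
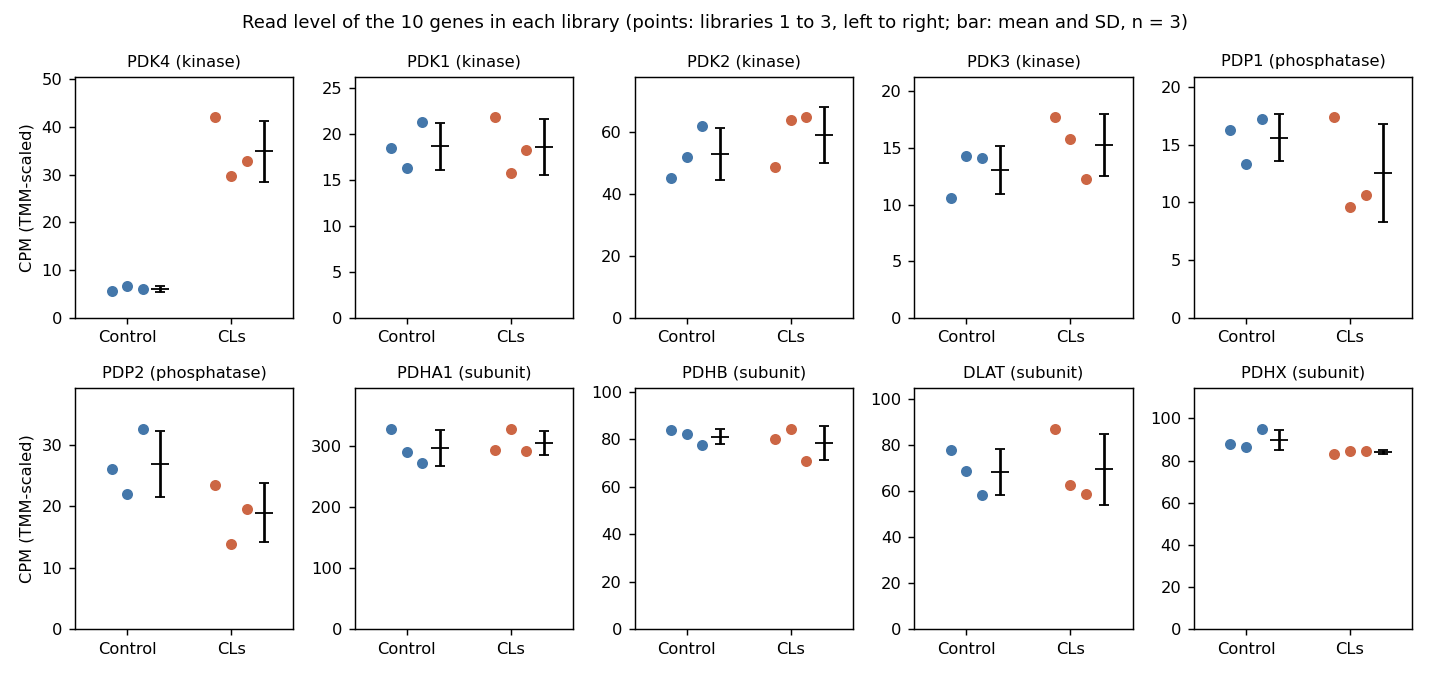
TMM-scaled CPM (vertical axes, each from 0) of the 10 genes in the 3 control libraries (blue) and the 3 CLs-treated libraries (red), with the mean and SD of each group as a black bar. PDK4 went from 5.47 to 6.65 CPM in the control libraries to 29.6 to 42.0 CPM in the CLs-treated libraries, while the points of the 2 groups overlap in PDK1, PDK2, PDK3, PDP1, PDP2, PDHA1, PDHB and DLAT.

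The window around the transcription start of PDK4 is shown because PDK4 is the member whose transcript differed between the groups. It spans 250 bases before to 50 bases after the start by RefSeq, at chr7:95596467-95596766 on the minus strand of GRCh38.p14, and 60.7% of its bases are G or C. It is printed 5′ to 3′ on the strand of the gene, with matches to the GC box and to the CCAAT box (ATTGG on this strand) in capitals.
PDK4 promoter: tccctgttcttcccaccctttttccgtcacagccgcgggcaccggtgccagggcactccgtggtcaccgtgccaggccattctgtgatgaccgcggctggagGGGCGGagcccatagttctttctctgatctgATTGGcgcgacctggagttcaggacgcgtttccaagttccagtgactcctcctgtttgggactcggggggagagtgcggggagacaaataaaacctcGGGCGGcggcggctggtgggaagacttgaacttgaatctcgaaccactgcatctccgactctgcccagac
On either strand the window held 2 matches to the GC box (GGGCGG). At least 1 was found in 45% of the 35116 promoter windows of the same length. The PDK4 window had 1 match to CCAAT, beginning at position -117 from the start, and 34.6% of windows hold at least 1. It held 1 match to AGAACA, a core of the glucocorticoid receptor site, found in 14.8% of all windows. No match was found to the nuclear receptor site AGGTCA (13.8% of windows), to the DR1 site, in which this site stands 2 times with 1 base between (0.0228%), to the ERR site TCAAGGTCA that contains it (0.353%), to the FOXO site TGTTTAC (3.42%), to the hypoxia site ACGTG (21.4%), to the E-box CACGTG that contains the hypoxia site (7.26%) or to TATAAA (11.5%). These letters are a description of this window, and sites outside it were not searched.

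The 3 paralogs, which share the catalytic fold and the substrate of PDK4, did not pass the test. PDK1 had 18.4, 16.2 and 21.3 CPM in the control libraries and 21.8, 15.7 and 18.2 CPM in the CLs-treated libraries. PDK2, the most widely expressed of the kinases, had 45.1, 51.8 and 61.8 CPM in the control libraries and 48.7, 63.6 and 64.7 CPM in the CLs-treated libraries. PDK3 had 10.6, 14.3 and 14.1 CPM in the control libraries and 17.7, 15.8 and 12.3 CPM in the CLs-treated libraries. In each of the 3 genes the groups overlapped. The log2 fold change of PDK1 was -0.0017 (95% interval -0.41 to 0.40), that of PDK2 was 0.16 (-0.21 to 0.52) and that of PDK3 was 0.23 (-0.22 to 0.68). The upper ends of these intervals correspond to 1.32-fold, 1.43-fold and 1.6-fold. PDK1, PDK2 and PDK3 had adjusted p-values of 0.999, 0.998 and 0.998 in the quasi-likelihood test of edgeR, with Benjamini-Hochberg adjustment over all genes tested. PDK1 was below 0 by so little that its sign turned with library totals in place of TMM scaling, with no filter on low counts and in 3 of the fits that left out 1 library. With each library left out in turn, PDK2 lay between 0.053 (without Control-1) and 0.28 (without Control-3), and PDK3 between 0.10 (without Control-1) and 0.37 (without CLs-3). PDK2 was also at 0.28 without CLs-1, 0.098 without CLs-2 and 0.085 without CLs-3, and PDK3 at 0.11 without CLs-1.

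**Figure D2:**
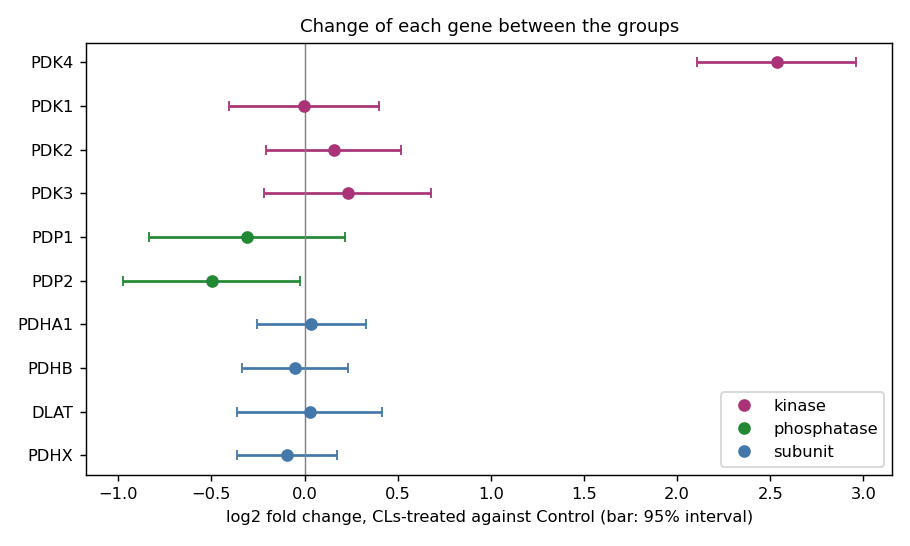
Log2 fold change of each gene (horizontal axis, CLs-treated against control), with its 95% interval from the edgeR fit, coloured by role. PDK4 lies at 2.53, the other 9 genes lie between -0.50 (PDP2) and 0.23 (PDK3), and the interval of PDP2 is the only one of the 9 that does not reach 0. The interval of PDK4 takes no account of its choice by this contrast and is not a test.

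Within a library, gene length and sequencing depth drop out when the ratio of PDK4 reads to those of a paralog is compared between groups. The log2 ratio of PDK4 to PDK1 was -1.75, -1.29 and -1.85 in the control libraries and 0.95, 0.91 and 0.85 in the CLs-treated libraries. Against PDK1 the 3 treated libraries lay within a narrow range, CLs-1 included. The mean difference between the groups was 2.53 for PDK1, 2.37 for PDK2 and 2.30 for PDK3. Set against PDK2, PDK4 had log2 ratios of -0.21, -1.10 and -0.98 in the treated libraries, and of -3.39 to -2.96 in the control libraries. CLs-1 was the highest of the treated libraries in this ratio, and without it the mean difference was 2.09. For PDK3 the log2 ratio was 0.91 to 1.42 in the CLs-treated libraries and -1.26 to -0.95 in the control libraries. The ranges of the groups did not overlap for any of the paralogs, which follows from the counts that chose PDK4.

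**Figure D3:**
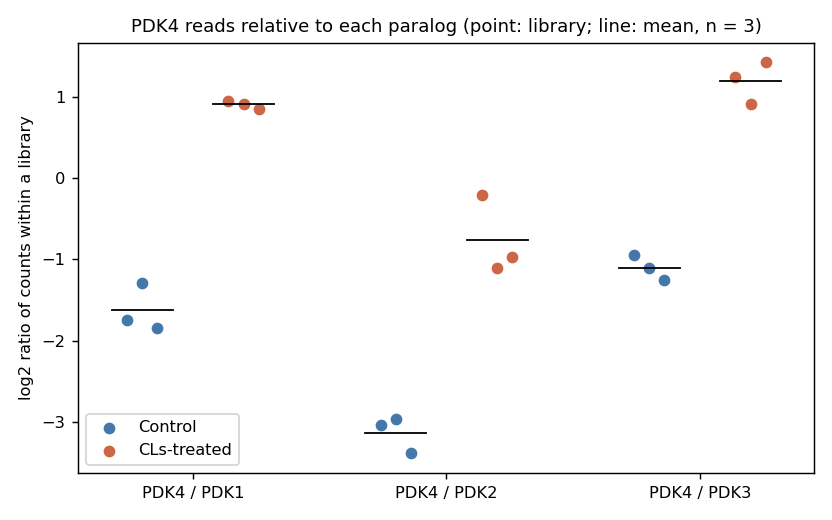
Log2 ratio of PDK4 counts to the counts of each paralog in the same library (vertical axis), for the 3 control libraries (blue) and the 3 CLs-treated libraries (red), with group means as black lines. The treated libraries lie 2.30 to 2.53 above the control libraries on average, and the height of a ratio also depends on the lengths of the transcripts.

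To compare levels between genes, reads were divided by the length of all exons of a gene's coding transcripts in GENCODE, which gives CPM per kilobase. In the control group PDHA1 was the highest of the 10 genes at 77.3 ± 7.58 (SD, n = 3), followed by PDHB at 49.1 ± 1.92 and PDHX at 29.6 ± 1.57. DLAT at 15.3 ± 2.23 and PDK2 at 13.2 ± 2.1 came next, and their libraries overlapped. PDK3, PDP2, PDP1, PDK4 and PDK1 followed, at 5.18 ± 0.839, 3.63 ± 0.732, 2.99 ± 0.393, 1.68 ± 0.166 and 1.27 ± 0.172 CPM per kilobase. Of these, the libraries of PDP2 overlapped with those of both PDK3 and PDP1, while PDK4 lay below PDP1 and above PDK1 in every control library. In the CLs-treated group PDK4 reached 9.74 ± 1.80 (SD, n = 3) and stood in the sixth place, below PDK2 at 14.7 ± 2.23 and above PDK3 at 6.08 ± 1.10, with no overlap between libraries on either side. The place of PDK1 rests on its annotated exon length of 14663 bases, most of it outside the coding sequence of 1368 bases. Per kilobase of coding sequence PDK4 was the lowest of the 10 genes in the control group, at 4.88 ± 0.482, and PDK1 stood at 13.6 ± 1.85. In the CLs-treated group PDK4 was then at 28.3 ± 5.21 and again in the sixth place.

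On the scale of reads per kilobase, PDK4 made up 8.39%, 8.61% and 6.85% of the 4 kinases in the 3 controls, taken by number. After CLs the share was 36.2%, 26.3% and 29.2%, highest in CLs-1. The 95% intervals, which were carried over from Wilson intervals of the read counts and cover counting error only, ran from 6.62% to 10.6% in Control-1 and from 34.0% to 38.5% in CLs-1. The separation of the groups in this share follows from the PDK4 counts that chose the set. PDK4 took a mean share of 7.95% ± 0.959 in controls (SD, n = 3) and 30.6% ± 5.11 after CLs (SD, n = 3), or 27.8% without CLs-1. PDK2 held the largest share in every library, with 61.8% ± 2.00 in the control group and 46.4% ± 7.74 in the CLs-treated group. The shares of PDK3 (24.3% ± 1.85 and 19.1% ± 3.20) and PDK1 (6.00% ± 0.878 and 3.98% ± 0.592) were lower in the CLs-treated group as well. By coding sequence the control mean of PDK1 was 13.6 ± 1.85 CPM per kilobase and that of PDK3 10.5 ± 1.69. The order of PDK1 and PDK3 therefore depends on the length used. The 4 shares add up to 100% in each library, so a larger share of PDK4 lowers the others.

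**Figure D4:**
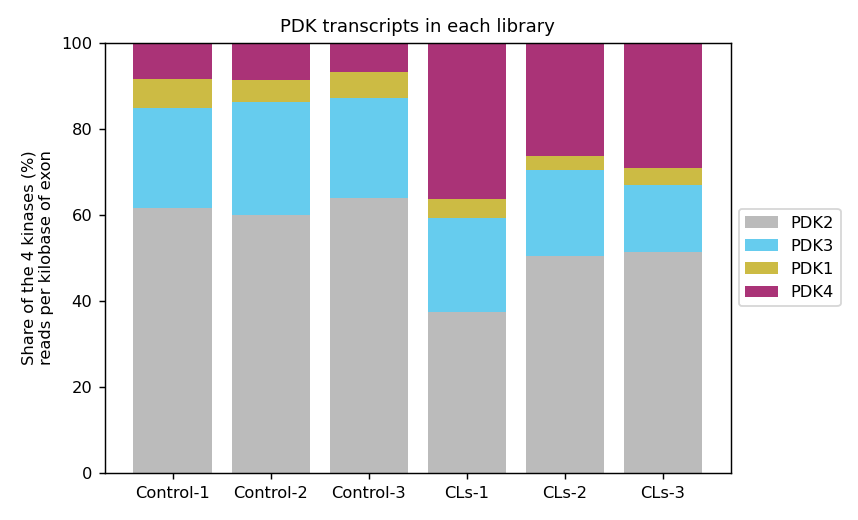
Share of each kinase in the summed reads per kilobase of PDK1, PDK2, PDK3 and PDK4 (vertical axis, percent) in each of the 6 libraries. The PDK4 part was 6.85% to 8.61% in the control libraries and 26.3% to 36.2% in the CLs-treated libraries, and PDK2 was the largest part in all 6. The part of PDK1 depends on the length used, here that of all exons.

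The phosphatases reverse the work of the kinases. PDP1, the calcium-sensitive isoform, had 16.2, 13.3 and 17.2 CPM in the control libraries and 17.4, 9.59 and 10.6 CPM in the CLs-treated libraries. CLs-2 and CLs-3 lay below the control libraries and CLs-1 above them. PDP2, the insulin-sensitive isoform, had 26.1, 21.9 and 32.7 CPM in the control libraries and 23.4, 13.9 and 19.6 CPM in the CLs-treated libraries, so that CLs-2 and CLs-3 again lay below every control library. The log2 fold change of PDP1 was -0.31 (95% interval -0.83 to 0.22) and that of PDP2 was -0.50 (-0.98 to -0.02). Neither passed the test (edgeR adjusted p = 0.986 and 0.829). Their sizes depended on single libraries. The log2 fold change of PDP1 was -0.63 without CLs-1, -0.15 without CLs-2 and -0.20 without CLs-3. That of PDP2 was -0.68 without CLs-1, -0.32 without CLs-2 and -0.33 without Control-3. The edgeR adjusted p-values without CLs-1 were 0.388 and 0.420. PDP2 was the 1 gene of the 9 with an unadjusted p-value under 0.05, a level that 5.81% of all genes tested reached.

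The ratio of summed kinase to summed phosphatase reads per kilobase was 2.75, 3.92 and 3.13 in the control libraries and 4.99, 8.47 and 6.71 in the CLs-treated libraries. The lowest treated library, CLs-1, was above the highest control library, Control-2. With PDK4 left out of the sum, the ratio was 2.52, 3.58 and 2.92 in the control libraries and 3.18, 6.25 and 4.75 in the CLs-treated libraries, and CLs-1 then lay within the range of the control group. Both ratios are given as descriptions, and the first holds the PDK4 values that chose the set.

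The subunits of the complex differed little between the groups. PDHA1 encodes the E1 alpha subunit that the kinases phosphorylate, and PDHB its E1 beta partner. PDHA1 had 329.5, 290.5 and 272.4 CPM in the control libraries and 295.0, 328.2 and 292.3 CPM in the CLs-treated libraries. PDHB had 83.7, 82.2 and 77.6 CPM in the control libraries and 80.2, 84.5 and 70.7 CPM in the CLs-treated libraries. DLAT, the E2 core enzyme whose lipoyl domains bind the kinases, had 77.9, 68.6 and 58.1 CPM in the control libraries and 87.1, 62.7 and 58.5 CPM in the CLs-treated libraries. In these 3 genes the groups overlapped, and CLs-1 held the highest value of DLAT. PDHX, the E3-binding protein of the core, had 87.8, 86.3 and 95.2 CPM in the control libraries and 83.2, 84.4 and 84.7 CPM in the CLs-treated libraries. All 3 treated libraries of PDHX lay below all 3 control libraries, a separation in that direction that 6.18% of all genes tested showed. The log2 fold changes of PDHA1, PDHB, DLAT and PDHX were 0.04, -0.05, 0.03 and -0.09. Their 95% intervals reached from -0.36 to 0.42 at the widest (DLAT), and edgeR's adjusted p-values lay between 0.998 and 0.999. DLAT changed sign to -0.17 without CLs-1, and PDHX was at -0.048 without Control-3.

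Of the 9 members other than PDK4, 0 passed both thresholds in edgeR's quasi-likelihood test (adjusted p under 0.05, with a fold above 1.5 or below 0.67), and 0 in DESeq2's Wald test. Over all genes tested, 0.0864% were called by edgeR (0.0133% up and 0.0731% down) and 0.413% by DESeq2. The edgeR fit called 0.672% of genes when low counts were kept and 0.452% when replicate numbers were blocked, and 0 of the 9 in either. The median log2 fold change of the 9 was -0.0017, with 4 above and 5 below 0, beside a median of 0.01 over all 15047 genes. Some counts depend on how reads in overlapping genes were assigned, as the strand setting of the counting is not given in the sources used here. The exons of PDK2 share 2113 bases with the antisense gene SAMD14, which had at most 5 counts in any library. PDHA1 shares 956 bases with MAP3K15 (42 to 97 counts), PDHX 259 bases with APIP (99 to 157 counts) and DLAT 212 bases with PIH1D2 (12 to 35 counts). PDK1 shares 445 bases with AC078883.1 and PDHB 263 bases with AC135507.1, both not analysed here. No gene in the annotation shared exon bases with PDK4, PDK3, PDP1 or PDP2.

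Beyond the 10 genes, 48 further genes were examined, of which 44 had enough reads. They take in pyruvate metabolism, the sister complexes and regulators known to act on PDK genes. Of the 44, 0 were called up and 0 down in edgeR's quasi-likelihood test, and 0 by DESeq2's Wald test. An unadjusted p-value under 0.05 in edgeR was reached by 2 of the 44, and by 5.81% of all genes tested. Their median log2 fold change was -0.02, with 21 above and 23 below 0, beside 0.01 over all genes. In 3 of them the CLs-treated libraries all lay above the control libraries (5.34% of all genes tested) and in 2 they all lay below (6.18%).

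Entry and production of pyruvate took in the mitochondrial carrier (MPC1, MPC2), the monocarboxylate transporters and pyruvate kinase. MPC2 stood highest of these 6, at 0.28 on the log2 scale (SE 0.17, edgeR adjusted p = 0.939), and it moved to 0.44 without Control-1 and to 0.18 without Control-3. PKLR, the pyruvate kinase of liver and red cells, had 0 counts in 5 libraries and 1 in CLs-3. Among the other fates of pyruvate, 9 genes tested lay between -0.23 and 0.25, with PCK2, the mitochondrial PEP carboxykinase, highest at 0.25 (SE 0.17, edgeR adjusted p = 0.960). PCK2 stood at 0.099 without CLs-2 and at 0.39 without CLs-3. GPT, the liver alanine aminotransferase, had 0 to 3 counts in every library.

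Among the genes that complete the complex, DLD encodes the E3 subunit, LIAS the lipoic acid synthase, and LIPT1 and LIPT2 the lipoyl transferases. LIAS had 68, 58 and 64 counts in the control libraries and 95, 106 and 80 counts in the CLs-treated libraries. Its CLs-treated libraries lay above the control libraries, at a log2 fold change of 0.47 (SE 0.22, edgeR adjusted p = 0.866). On the log2 scale DLD stood at 0.22 (SE 0.14), LIPT1 at -0.35 (SE 0.32) and LIPT2 at -0.40 (SE 0.40), with edgeR adjusted p-values of 0.956, 0.998 and 0.998. Without CLs-1 the value of DLD was 0.090 and that of LIPT2 was -0.14, and without Control-2 those of LIPT1 and LIPT2 were -0.16 and -0.25. LIPT2 was -0.63 without CLs-3, and LIAS was 0.31 without CLs-2 and 0.56 without CLs-1. LIPT1 and LIPT2 were low, at no more than 33 counts in any library. PDHA2, the testis form of E1 alpha, had 2 to 5 counts and was not tested.

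The 2 lowest log2 fold changes of the 44 belonged to genes that carry citrate out of the mitochondrion and split it into cytosolic acetyl-CoA. ACLY, the ATP citrate lyase, had a mean CPM of 889.4 in the control group and 626.1 in the CLs-treated group, and its log2 fold change was -0.51 (SE 0.14, edgeR adjusted p = 0.320). SLC25A1, the mitochondrial citrate carrier, had means of 117.7 and 88.0 CPM, and its log2 fold change was -0.42 (SE 0.17, edgeR adjusted p = 0.775). In both, every treated library lay below every control library. ACLY had an adjusted p of 0.0326 in DESeq2's Wald test, where its fold change did not reach the criterion. The log2 fold change of SLC25A1 was -0.26 without CLs-1. CS, the citrate synthase, stood at -0.10, and ACAT1, a mitochondrial thiolase, at 0.20 with all treated libraries above the controls. The 7 genes of the sister complexes for 2-oxoglutarate and branched-chain keto acids, with the kinase BCKDK and the phosphatase PPM1K, lay between -0.28 and 0.06.

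Of the 13 transcription factors and coactivators known to act on PDK genes, 12 were tested. PPARGC1A encodes PGC-1 alpha, a coactivator of fasting and oxidative metabolism known to raise PDK4. It had 44, 69 and 76 counts in the control libraries and 129, 86 and 79 counts in the CLs-treated libraries. The treated libraries lay above the controls on the CPM scale, at a log2 fold change of 0.52 (SE 0.25, edgeR adjusted p = 0.869). Without Control-1 the log2 fold change was 0.32, and without CLs-1 it was 0.40. FOXO1, a factor that insulin signalling keeps out of the nucleus, was lowest of the 12, at -0.32 (SE 0.22, edgeR adjusted p = 0.966). With each library left out in turn, FOXO1 lay between -0.44 (without CLs-1) and -0.14 (without Control-3), and at -0.16 without CLs-2. The fatty acid receptor genes PPARA, PPARD and PPARG stood at -0.29, -0.19 and 0.14. ESRRG had 0 or 1 count in every library.

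**Figure D5:**
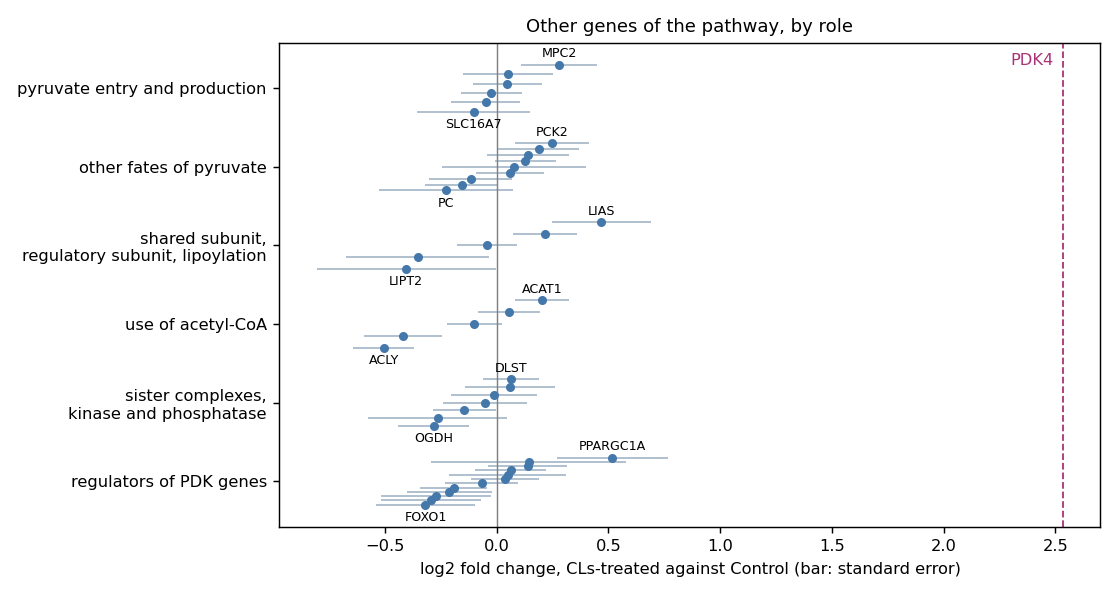
Log2 fold change (horizontal axis, CLs-treated against control, bars are standard errors) of the 44 tested genes of pyruvate metabolism, sister complexes and PDK regulators. Genes are grouped by role, with the highest and the lowest gene of each role named. The genes lie between -0.51 (ACLY) and 0.52 (PPARGC1A), and the dashed line marks PDK4 at 2.53.

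The genes whose pattern over the 6 libraries was most like that of PDK4 were found by the root mean square difference in log2 CPM, after each gene was centred on its control mean. GCNT3, a glycosyltransferase of mucin-type glycans, was nearest, at 0.29, with 4 to 6 counts in the control libraries and 21 to 57 in the CLs-treated libraries. SULT1A3, FA2H, GPR89C, P4HA3, AKR1B10, EPGN and RAP1GAP followed, at 0.68 to 0.87. None of the 8 was called, with edgeR adjusted p-values from 0.0508 (GCNT3) to 0.401 (GPR89C). They were picked by likeness to PDK4, so these values do not test that likeness. SULT1A3 and GPR89C have near-identical copies in the genome, so their counts are uncertain. GCNT3, SULT1A3, FA2H, GPR89C and P4HA3 had at most 9 counts in any control library. They passed the filter on low counts only through the CLs-treated libraries, so their likeness to PDK4 is in part set by that filter. RAP1GAP, a regulator of the small GTPase RAP1, had the most reads of the 8, with a mean of 15.5 ± 6.07 CPM in controls (SD, n = 3) and 40.8 ± 8.47 CPM after CLs (SD, n = 3). AKR1B10, an aldo-keto reductase, was read 126, 31 and 87 times after CLs and 17 to 33 times in the control libraries, so its groups overlapped in counts. FA2H, a fatty acid hydroxylase, had 0 to 6 counts in the control libraries and 14 to 16 in the CLs-treated libraries. Likeness was ranked with a prior count of 2, and with 0.5 in its place 5 of the 8 genes stayed among the nearest.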

How the data were processed

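Libraries were made with a total RNA kit and sequenced single-end on Ion Proton. The authors mapped filtered reads with MapSplice and deposited raw counts per gene symbol, and the submitters' processing notes name HTSeq 0.6.1, hg19 and GRCh37. The authors' RPKM and EBSeq steps are not part of the deposited file. All columns of the file were used. After filterByExpr and TMM scaling, counts were compared between conditions with the quasi-likelihood test of edgeR 4.0.16 in R 4.3.3, with Benjamini-Hochberg adjustment over all genes tested. Standard errors and 95% intervals were derived from the F statistic. Genes were called at an adjusted p-value under 0.05 and a fold above 1.5 or below 0.67. EBSeq was not installed. DESeq2 1.42.0, other scaling and filters, a replicate block and each library left out were alternatives. The script was tested on simulated data. Exon and coding lengths came from GENCODE (GRCh38) and the promoter from RefSeq (GRCh38.p14), matched by symbol for all 10 genes and for PDK4, while the files are on hg19, so lengths may differ from those counted on. The members, gene lists and tests were chosen with earlier results of these data known. Named were all 10 members, of the pathway list the 5 highest, the 5 lowest and those at 0 to 3 counts, and the 8 genes most like PDK4. Other genes in the text were chosen after their values were seen. With 11418527 to 13998946 reads per library, 3 counts were taken as the floor. Replicates were not duplicates of one another.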

Additional observations from a re-analysis of the deposited data

How the results depend on the processing

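The log2 fold change of PDK4 stayed between 2.38 (without CLs-1) and 2.64 (without CLs-2) over all 12 alternatives. Its difference from PDK1, PDK2 and PDK3 within libraries kept its direction in all 7 alternatives each. PDK4 was chosen for its counts in this contrast, so neither result is a test of its change. None of the other 9 members, and none of the 44 pathway genes, was called under any alternative. PDK1 turned to 0.026 with library totals only and to 0.0059 with no filter on low counts. With 1 library left out, PDK1 ran from -0.13 to 0.11, PDHA1 from -0.022 to 0.12, PDHB from -0.10 to 0.021, DLAT from -0.17 to 0.14, PDP1 from -0.63 to -0.15 and PDP2 from -0.68 to -0.32. The number of genes called up and down over the transcriptome was 15 and 90 by DESeq2, 58 and 113 with no filter on low counts, and 12 and 56 under a replicate block. It was 2 and 6 with library totals only and 1 and 12 with at least 10 counts in every sample. With 1 library left out, 1 to 3 genes were called up and 2 to 6 down. The replicate block gives log2 fold changes of 2.52 for PDK4, -0.51 for PDP2 and -0.35 for PDP1, and changed no call among the members. The pairing rests on the numbers alone. Deviations of same-numbered libraries correlated at 0.11, 0.099 and 0.31 over genes, and every library correlated best with its own number. Libraries of unlike number correlated at -0.20 to 0.078, the highest being Control-2 with CLs-1, so the margin was small for some libraries. The PDK4 share of the control group was 6.69% with reads not divided by length, 6.74% by the longest principal transcript and 6.80% by coding sequence, the last 2 chosen after seeing the data. In the CLs-treated group the same settings gave 27.2%, 26.9% and 27.5%. Of the 8 genes most like PDK4, 5 stayed with a prior count of 0.5. Genes with few reads, such as LIPT2 and GCNT3, are limited by depth, and LIPT2 had no value with at least 10 counts in every sample.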

Other observations

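The genes that flank PDK4 on chromosome 7 were looked up after the other values were seen, from the order of protein-coding genes in RefSeq. ASB4, next to it on one side, had 0 counts in the control libraries and 7, 1 and 0 after CLs, the 7 in CLs-1. PON2, the paraoxonase gene beyond ASB4, had 124.3, 145.1 and 148.3 CPM in the control libraries and 183.1, 183.1 and 175.0 CPM in the CLs-treated libraries. Its treated libraries all lay above the controls, a separation in that direction that 5.34% of all genes tested showed. The log2 fold change of PON2 was 0.37 (standard error 0.13, edgeR adjusted p = 0.590), so it did not pass. On the other side DYNC1I1 and SLC25A13 had log2 fold changes of 0.42 (standard error 0.39) and 0.03 (standard error 0.17), with edgeR adjusted p-values of 0.998 and 0.999, and their groups overlapped.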
